A study of Mus musculus with 12 samples.

Results

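The NF-kB, cytokine and inflammatory genes described here were 34 genes chosen by symbol and found by full name in a gene table of 58735 genes, where all 34 had a row. They were measured by RNA-Seq in U2OS cells, an established human osteosarcoma cell line, in 12 libraries. The labels name U2OS for all of them, while the study's methods place its transient transfections in HOS, another osteosarcoma line. Each of 4 groups had 3 replicates: blank cells, cells that received either of the siRNAs siSRSF1-2 and siSRSF1-3 against the splicing factor SRSF1, and cells with overexpression of LINC01134, a long non-coding RNA (OE-LINC01134). What the blank cells received is not given in the sources used here, nor are the vector and promoter behind LINC01134. No control siRNA or empty vector group was among these samples, so transfection and target cannot be told apart in any comparison with blank cells. By the labels all groups came from 1 cell line, and the sources do not agree on the number of biological replicates, so the p-values measure only the spread between these libraries. Values are FPKM, fragments per kilobase of gene after scaling for the size of each library, and can be compared between genes because they are per length. Of the 34 genes, 25 had a mean of at least 0.5 FPKM over the 12 libraries and were tested, and 9 did not and are given by their levels and reads alone. CXCL1 passed this filter through blank replicates 2 and 3 alone, so its difference from them was fixed by the filter, and counts of members below cover the other 24. CCL2 had a mean of 0.499 FPKM over the 9 libraries other than blank, just under the same minimum. It therefore passed only with the blank cells, where it was high. The filter thus favoured a lower call of CCL2, which is kept in the counts.

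NF-kB is a family of dimeric transcription factors that inhibitory proteins hold in the cytoplasm. Receptors for interleukin-1, tumor necrosis factor and microbial products activate kinases that mark the inhibitor for destruction, and the released dimers then switch on cytokines, chemokines, adhesion molecules and survival genes, together with their own inhibitors. Tumor cell lines of mesenchymal origin can make many of these products without immune cells being present, and interleukin-1, interleukin-6 and interleukin-8 are also known parts of the secretory program of stressed cells.

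The libraries held 26237763 to 32954539 reads on genes. FPKM over all genes summed to 611100, 410600 and 302500 in siSRSF1-3 replicates 1, 2 and 3. In the other libraries it summed to between 281100 (siSRSF1-2 replicate 2) and 324600 (blank replicate 1). Levels with siSRSF1-3 below are those of the deposited scale, and the part of these sums in them was not tested. SRSF1, the targeted gene, was at 35.9, 19.8 and 20.5 FPKM in blank replicates 1, 2 and 3, at 7.09 to 7.46 FPKM with siSRSF1-2, at 3.33 to 7.90 FPKM with siSRSF1-3 and at 29.6 to 31.8 FPKM in OE-LINC01134. It passed the test with siSRSF1-2 (log2 fold change -1.72, adjusted p = 0.005) and missed it with siSRSF1-3 (-2.09, adjusted p = 0.0518). LINC01134 was at 0.497 to 1.11 FPKM in the 9 libraries without overexpression and at 878 to 1279 FPKM with it. Markers of leukocytes, which express many of these inflammatory genes, summed to 0.546 to 1.23 FPKM over 11 genes in every library, with PTPRC, the pan-leukocyte marker, at no more than 0.0559 FPKM and CD3E at 0 in all 12. Vimentin and osteoblast-lineage genes were expressed in every library, while COL1A2, a defining collagen of mesenchymal cells, was at or below 0.0131 FPKM.

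Blank replicate 1 stood apart from the other blank libraries in this set of genes. Measured on FPKM + 0.1, so that single reads of low genes weigh little, blank replicates 2 and 3 differed by over 2-fold in 0 of the 34 members, whereas blank replicate 1 differed by over 2-fold from replicate 2 in 23 and from replicate 3 in 22. Among the 24 members, 16 were over 2-fold higher in both blank replicates 2 and 3 than in blank replicate 1 on that scale, against 5.61% of all 17538 tested genes, and 0 were over 2-fold lower in both, against 2.58% of all genes. CXCL8 showed the widest gap, with 2.97 FPKM in blank replicate 1 against 281 and 290.5 FPKM in replicates 2 and 3, which were 94.7 and 97.8 times higher in FPKM without the 0.1. Blank replicate 1 was the lowest of the 12 libraries for 13 of the 24, against 11.6% of all genes. Blank replicates 2 and 3 were both above each of the other 10 libraries for 9 members (CXCL8, CXCL3, CCL20, IL1A, CSF1, CSF2, TNFAIP3, TREM1 and C3AR1), against 5.53% of all genes. In the same library SRSF1 was higher than in the other blank libraries and the mesenchymal markers summed to 404.2 FPKM over 6 genes, against 266.6 and 283 FPKM, and the part of either in the result was not tested. In bulk RNA, fewer cells that express a gene and less RNA in each cell cannot be told apart. Counts of calls against blank cells are therefore given with and without blank replicate 1. That library was singled out by its low values for these same members, so its omission favoured lower calls and lower medians of them. All genes were not chosen in this way, so their shares are no like measure for the counts without it. Those counts rest on 2 close blank libraries, and the sources do not say whether these came from separate cultures. OE-LINC01134 replicate 2 also differed from its group, with 11.6% and 11.9% of all genes over 2-fold apart from replicates 1 and 3 (3.55% between those), and with 6 and 7 of the 34 members. The mesenchymal markers summed to 347.8 FPKM in that library against 134.7 and 135 FPKM, and their part in any result was not tested.

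**Figure D1:**
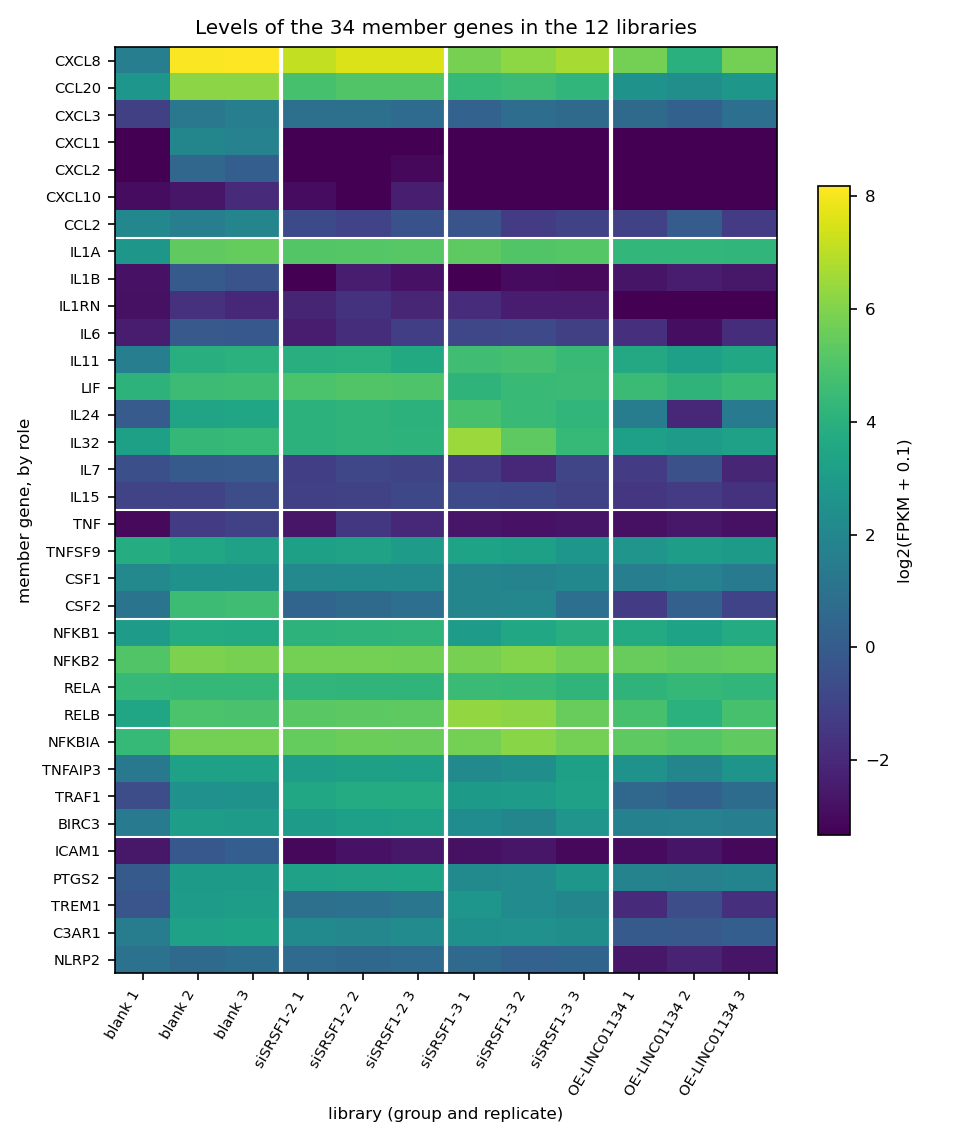
Levels of the 34 members (rows, grouped by role as chemokines, interleukins, tumor necrosis factor and colony-stimulating factors, NF-kB subunits, feedback and signaling genes, and other products and receptors) in the 12 libraries (columns), coloured by log2(FPKM + 0.1). Blank replicate 1 was darker than blank replicates 2 and 3 for most rows, and CXCL1 and CXCL2 were bright only in blank replicates 2 and 3.

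The chemokines ranged from the most abundant member to genes with no reads. CXCL8, which encodes interleukin-8, the main attractant of neutrophils, was at 140.7, 188 and 191.5 FPKM with siSRSF1-2, at 56.4, 75.3 and 102.9 FPKM with siSRSF1-3 and at 55.1, 15.7 and 54.4 FPKM in OE-LINC01134. Every one of these 9 libraries lay between blank replicate 1 and the other blank libraries. CCL20, the ligand of CCR6 on lymphocytes and dendritic cells, was at 6.41, 72.0 and 73.6 FPKM in blank cells, at 28.7, 33.4 and 33.8 FPKM with siSRSF1-2, at 20.7, 23.5 and 18.85 FPKM with siSRSF1-3 and at 5.82, 5.10 and 6.69 FPKM in OE-LINC01134. The OE-LINC01134 libraries thus overlapped blank replicate 1 and lay below every siRNA library. CXCL3, a neutrophil attractant that acts through CXCR2, was at 0.358, 2.35 and 2.91 FPKM in blank cells and between 1.09 and 1.80 FPKM in the other 9 libraries. CXCL1, of the same receptor, had 138 and 141 reads in blank replicates 2 and 3 (3.75 and 3.33 FPKM) and 0 reads in each of the other 10 libraries. CXCL2, a close paralog with which it may share reads, had 55 and 48 reads in the same libraries and 1 read in all others together, in siSRSF1-2 replicate 3. Both genes were thus detected in blank replicates 2 and 3, and a count of 0 allows up to 3 reads per library elsewhere. CXCL10, an interferon-induced attractant of T cells, had at most 6 reads in any library and was too low to compare. CXCL8, CXCL1, CXCL3 and CXCL2 are neighbours on chromosome 4 in the coordinates of the deposited table, with CXCL8 at 73740506 to 73743716, CXCL1 at 73869393 to 73871242, CXCL3 at 74036589 to 74038807 and CXCL2 at 74097035 to 74099293 (human build not given in the sources used here). CXCL10 lies farther away on the same chromosome, at 76021117 to 76023497. Levels differed widely among the 4 neighbours in every library.

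CCL2, the attractant of monocytes, had a pattern of its own. It was at 4.07, 2.89 and 3.62 FPKM in blank cells, at 0.491, 0.392 and 0.653 FPKM with siSRSF1-2, at 0.668, 0.317 and 0.388 FPKM with siSRSF1-3 and at 0.365, 0.903 and 0.317 FPKM in OE-LINC01134. All 3 blank libraries, replicate 1 included, lay above all 9 other libraries, which overlapped one another. The study also drew CCL2 into a list of lower genes from these same libraries, so its direction is not independent of that choice.

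The interleukins split by group in several ways. IL1A, an alarmin that signals through the interleukin-1 receptor, was at 6.73, 40.75 and 43.6 FPKM in blank cells, between 33.3 and 39.8 FPKM in the 6 siRNA libraries and between 19.1 and 19.6 FPKM in OE-LINC01134. Apart from blank replicate 1, the OE-LINC01134 libraries were the lowest and did not overlap the siRNA libraries. IL1B, the secreted form processed by the inflammasome, was at 0.0467, 0.852 and 0.681 FPKM in blank cells and at 0.0875 FPKM or less in the other 9 libraries. IL1RN, the natural antagonist of both, had 4, 20 and 15 reads in blank cells, 7 to 21 reads in the siRNA libraries and 0 reads in all 3 OE-LINC01134 libraries. Its mean was at least 4.11 times lower in OE-LINC01134 than in blank cells when 3 reads are allowed per library. The 3 genes lie on chromosome 2, IL1A at 112773915 to 112784590, IL1B at 112829751 to 112836903 and IL1RN at 113107214 to 113134016.

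IL6, IL11 and LIF act through receptors that share the signaling chain gp130 (encoded by IL6ST). IL6, the acute-phase cytokine, was low throughout, with 5, 49 and 55 reads in blank cells (0.0873, 0.833 and 0.813 FPKM), 5 to 25 reads in the siRNA libraries and 12, 2 and 11 reads in OE-LINC01134. IL11, which promotes fibrosis and bone turnover, was at 2.91, 15.4 and 16.2 FPKM in blank cells, at 15.15, 15.6 and 12.6 FPKM with siSRSF1-2, at 25.1, 27.9 and 21.7 FPKM with siSRSF1-3 and at 12.3, 9.03 and 11.8 FPKM in OE-LINC01134. The siSRSF1-3 libraries were the highest of the 12, and the OE-LINC01134 libraries the lowest after blank replicate 1. LIF, the leukemia inhibitory factor, moved less, from 17.5 FPKM in blank replicate 1 to 32.7 FPKM in siSRSF1-2 replicate 2. The 3 siSRSF1-2 libraries, at 30.3 to 32.7 FPKM, lay above all 9 others.

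IL24, a cytokine of the interleukin-10 family, and IL32, a cytokine made by epithelial and stromal cells on NF-kB activation, were highest with siSRSF1-3 on average. This holds on the deposited scale, where FPKM sums were largest in siSRSF1-3 replicates 1 and 2. IL24 was at 0.876, 10.5 and 10.9 FPKM in blank cells, at 16.9, 17.6 and 16.5 FPKM with siSRSF1-2, at 28.1, 21.2 and 18.9 FPKM with siSRSF1-3 and at 2.72, 0.148 and 2.58 FPKM in OE-LINC01134. The 6 siRNA libraries lay above the 3 blank libraries, and OE-LINC01134 replicate 2 was the lowest of all. IL32 was at 9.15, 20.2 and 20.6 FPKM in blank cells, at 16.7 to 17.8 FPKM with siSRSF1-2, at 87.0, 40.5 and 20.6 FPKM with siSRSF1-3 and at 8.87, 8.03 and 9.59 FPKM in OE-LINC01134. The siSRSF1-3 libraries ran from the level of blank replicate 3 to the highest of all 12, in replicate 1. IL7 and IL15, growth factors of lymphocytes, were below 1 FPKM in every library, with IL7 between 0.607 and 0.883 FPKM in blank cells and between 0.134 and 0.615 FPKM elsewhere. IL15 was at 0.218 to 0.312 FPKM in OE-LINC01134 and at 0.354 to 0.560 FPKM in the other 9 libraries, so these did not overlap.

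TNF, the founding cytokine of its family, was at most 0.383 FPKM (blank replicate 3), and its highest values outside blank cells were 0.263 and 0.151 FPKM with siSRSF1-2. TNFSF9, the ligand of the costimulatory receptor 4-1BB (TNFRSF9), was at 13.7, 11.4 and 9.62 FPKM in blank cells and between 6.28 and 10.1 FPKM elsewhere, and was among the few members that were highest in blank replicate 1. CSF1, the growth factor of macrophages, was at 4.15, 5.94 and 5.71 FPKM in blank cells and at 2.92, 3.39 and 2.65 FPKM in OE-LINC01134, with no overlap. CSF2, the granulocyte-macrophage factor, was at 2.02, 23.4 and 25.1 FPKM in blank cells, at 1.24, 1.46 and 1.76 FPKM with siSRSF1-2, at 3.69, 3.95 and 1.75 FPKM with siSRSF1-3 and at 0.307, 1.07 and 0.400 FPKM in OE-LINC01134. All siSRSF1-2 and OE-LINC01134 libraries lay below the lowest blank library, and siSRSF1-3 overlapped it.

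The NF-kB subunits were expressed in all 12 libraries. RELA, the transactivating subunit of the classical dimer, stayed between 17.6 and 22.8 FPKM in all 12 libraries. NFKB1, its usual partner, was at 7.93, 13.4 and 12.9 FPKM in blank cells, at 17.1, 18.01 and 18.2 FPKM with siSRSF1-2, at 8.23, 11.9 and 14.75 FPKM with siSRSF1-3 and at 13.05, 10.1 and 13.4 FPKM in OE-LINC01134. NFKB2, the precursor in the alternative pathway, was at 33.1 FPKM in blank replicate 1 and between 41.2 and 66.6 FPKM in the other 11 libraries. RELB, the partner of NFKB2 in that pathway, was at 11.2, 30.55 and 29.0 FPKM in blank cells, at 37.6, 38.8 and 39.6 FPKM with siSRSF1-2, at 80.15, 73.2 and 44.8 FPKM with siSRSF1-3 and at 28.4, 16.2 and 28.25 FPKM in OE-LINC01134. The 6 siRNA libraries lay above the 6 others for RELB.

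The feedback and signaling genes are themselves NF-kB targets. NFKBIA, the inhibitor that retains the dimers in the cytoplasm, was at 21.1, 55.0 and 55.5 FPKM in blank cells, between 44.4 and 70.4 FPKM in the siRNA libraries and between 34.9 and 41.4 FPKM in OE-LINC01134. TNFAIP3, a ubiquitin-editing enzyme that ends the signal, was at 2.39, 9.40 and 9.35 FPKM in blank cells, at 8.28, 9.06 and 8.95 FPKM with siSRSF1-2, at 4.24, 5.27 and 9.07 FPKM with siSRSF1-3 and at 5.67, 3.81 and 6.07 FPKM in OE-LINC01134. Blank replicate 1 was the lowest library for both inhibitors. TRAF1, an adaptor of tumor necrosis factor receptors, was at 0.560, 5.54 and 5.68 FPKM in blank cells, at 11.8, 13.5 and 13.6 FPKM with siSRSF1-2, at 7.62, 7.89 and 9.40 FPKM with siSRSF1-3 and at 1.36, 1.07 and 1.57 FPKM in OE-LINC01134. The TRAF1 values of the siRNA libraries lay above every blank and OE-LINC01134 library. BIRC3, a ubiquitin ligase of the same receptor complex, was at 2.66, 8.27 and 8.06 FPKM in blank cells, at 7.82, 8.89 and 9.45 FPKM with siSRSF1-2, at 4.80, 3.79 and 6.38 FPKM with siSRSF1-3 and at 3.18, 3.36 and 2.95 FPKM in OE-LINC01134.

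Among the other products, ICAM1, the adhesion ligand of leukocyte integrins, had 7, 83 and 120 reads in blank cells and 2 to 9 reads in each of the other 9 libraries. PTGS2, the inducible cyclooxygenase of prostaglandin synthesis, was at 0.871, 7.71 and 7.62 FPKM in blank cells, at 9.43, 9.74 and 10.1 FPKM with siSRSF1-2, at 4.36, 4.58 and 6.81 FPKM with siSRSF1-3 and at 3.43, 3.13 and 3.52 FPKM in OE-LINC01134. The siSRSF1-2 libraries were the highest for PTGS2, and ICAM1 was high only in blank replicates 2 and 3. TREM1, a receptor that amplifies inflammatory signals in myeloid cells, was at 0.709, 8.14 and 8.56 FPKM in blank cells, at 1.79, 1.85 and 2.18 FPKM with siSRSF1-2, at 6.49, 4.58 and 3.75 FPKM with siSRSF1-3 and at 0.159, 0.567 and 0.202 FPKM in OE-LINC01134. C3AR1, the receptor of complement fragment C3a, was at 2.88, 9.50 and 10.2 FPKM in blank cells, at 4.25, 3.85 and 4.57 FPKM with siSRSF1-2, at 5.33, 5.56 and 5.22 FPKM with siSRSF1-3 and at 0.853, 0.819 and 0.995 FPKM in OE-LINC01134. For both receptors the OE-LINC01134 libraries were the lowest of the 12. NLRP2, a cytoplasmic NOD-like receptor (chromosome 19, 54953130 to 55001142), was at 1.88, 1.48 and 1.69 FPKM in blank cells, at 1.36 to 1.55 FPKM with siSRSF1-2, at 1.11 to 1.41 FPKM with siSRSF1-3 and at 0.0656, 0.122 and 0.0554 FPKM in OE-LINC01134. NLRP2 was therefore low in OE-LINC01134 alone, and blank replicate 1 did not stand apart for it. The mean was lowest in OE-LINC01134 of the 4 groups for 18 of the 24 members, against 20.7% of all genes, and the exceptions were RELB, LIF, RELA, NFKB1, CXCL3 and CCL2.

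**Figure D2:**
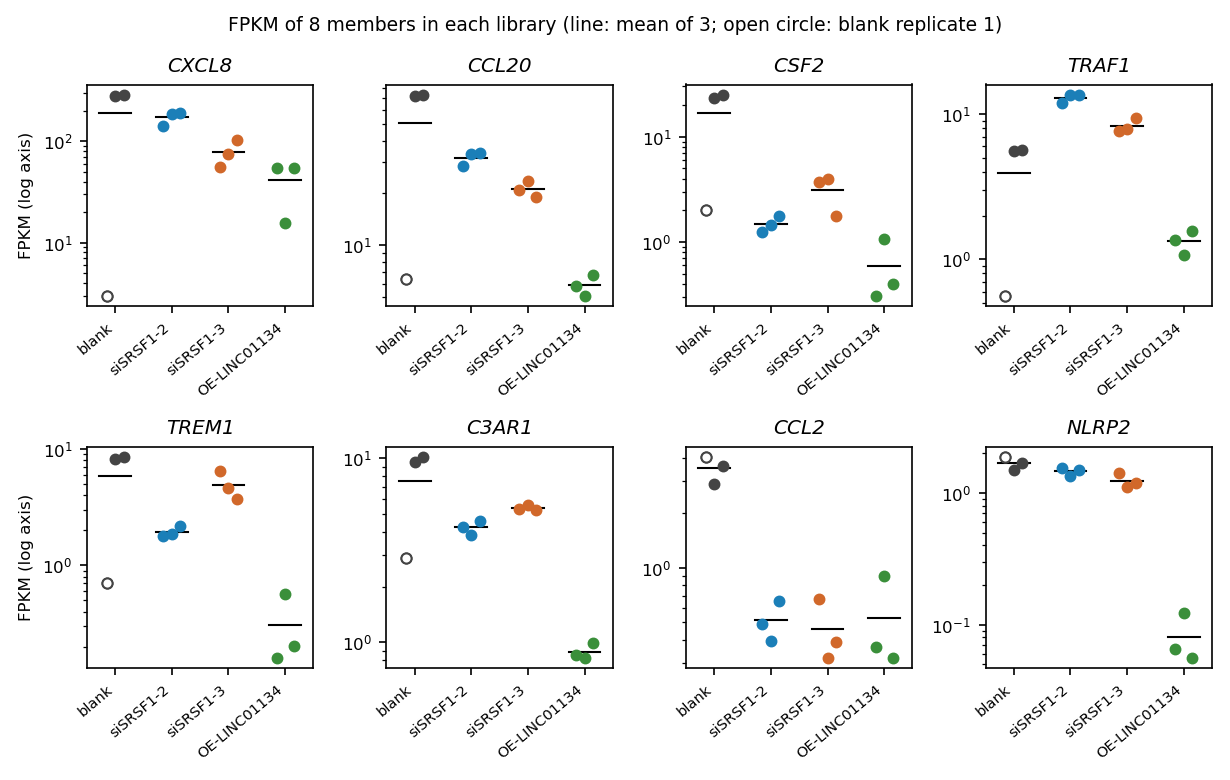
FPKM (log axis) of 8 members in each library by group, with the mean of 3 libraries as a line and blank replicate 1 as an open circle. CXCL8, CCL20, CSF2, TRAF1, TREM1 and C3AR1 were lower in blank replicate 1 than in the other blank libraries, CCL2 was low in all 9 libraries other than blank, and NLRP2 was low in OE-LINC01134.

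The first comparison asked which of these genes changed with siSRSF1-2. CCL2 fell, with a log2 fold change of -2.58 ± 0.21 (standard error, 3 against 3 libraries) and an adjusted p of 0.00146 by limma on log2(FPKM + 0.1), and it was the single member of 24 called lower, against 2.73% of all genes. A call needed a Benjamini-Hochberg adjusted p under 0.05 over all 17538 genes and an absolute log2 fold change over 1. No member was called higher, against 2.22% of all genes. When the same fold was asked for with an unadjusted p under 0.05, 1 member was higher (TRAF1, against 3.06% of all genes) and 2 were lower (CCL2 and CSF2, against 3.43%), and voom on the recovered reads also gave 0 higher and 1 lower. The median log2 fold change was 0.24 over the 24 members and 0.02 over all genes. CXCL1 was at least 31.5 times lower than the blank mean at a floor of 3 reads per library. This difference was fixed by the filter, and blank replicate 1 had no read either. Without blank replicate 1, 5 members were lower, against 3.74% of all genes: CSF2 (-3.96 ± 0.14, adjusted p = 4.88e-05), CCL2 (-2.47), TREM1 (-2.05), C3AR1 (-1.20) and CCL20 (-1.19). TRAF1 was then the 1 member called higher (1.19 ± 0.07, adjusted p = 0.000147), against 3.03% of all genes, and the median over the members was -0.19. Omitting that library, chosen for its low member values, favoured the lower calls. The p-values without it rest on the small spread between 2 close blank libraries. CCL2 was called in 16 of 16 settings tried, and CSF2, TREM1, C3AR1, CCL20 and TRAF1 in 1. The filter favoured the call of CCL2, and with no filter its adjusted p by limma was 0.00606.

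With siSRSF1-3, CCL2 was again the 1 member called lower (-2.74 ± 0.31, adjusted p = 0.0356), against 0.929% of all genes, and 0 members were called higher, against 0.331%. At the unadjusted p with the same fold, 3 members were higher, against 7.57% of all genes: RELB (1.57), IL24 (2.21) and IL32 (1.41). CCL2 was the 1 member lower at that p, against 7.24%, and voom also gave 0 higher and 1 lower. CXCL1 was at least 25.0 times lower than the blank mean, a difference fixed by the filter, and blank replicate 1 had no read either. The median was 0.04 over the members and -0.01 over all genes. Without blank replicate 1, CCL2 kept its size (-2.63 ± 0.36) but had an adjusted p of 0.0831. Then 0 of the 24 members were called lower, against 0.160% of all genes, and 0 higher, against 0.00570%. By the unadjusted p, 4 members were lower without that library (CCL2, CSF2 at -2.997, CXCL8 at -1.91 and CCL20 at -1.79), against 5.42% of all genes, and 2 were higher (RELB and IL24), against 4.78%. The call of CCL2 with siSRSF1-3 held in 9 of 16 settings, with adjusted p from 0.00293 to 0.218. With no filter, its adjusted p by limma was 0.0505. Both siRNA groups were compared with the same blank libraries.

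In OE-LINC01134, 2 members were called lower, against 0.593% of all genes: NLRP2 (-3.31 ± 0.31, adjusted p = 0.0199) and CCL2 (-2.63 ± 0.36, adjusted p = 0.0402). C3AR1 lay just outside (-2.75 ± 0.47, adjusted p = 0.0502), and CSF2 (-4.12, adjusted p = 0.0779) and TREM1 (-3.37, adjusted p = 0.0977) missed the threshold with larger changes. No member was called higher, against 0.257% of all genes. By the unadjusted p with the same fold, 6 members were lower and 0 higher, against 5.0% and 2.45% of all genes, and voom gave 2 lower and 0 higher. The libraries did not overlap for 7 of the 24 members, all lower in OE-LINC01134, against 13.8% of all genes. The median was -0.71 over the members and 0.05 over all genes. Without blank replicate 1, 12 members were called lower, against 3.68% of all genes: CSF2 (-5.30), TREM1 (-4.50), CCL20 (-3.62), C3AR1 (-3.33), NLRP2 (-3.23), CXCL8 (-2.98), CCL2 (-2.52), TRAF1 (-2.01), BIRC3 (-1.34), IL32 (-1.20), PTGS2 (-1.17) and IL1A (-1.12). The adjusted p among these 12 ran from 0.00264 for CCL20 to 0.0368 for CXCL8. Omitting blank replicate 1, chosen for its low member values, favoured these calls. No member was called higher without it, against 1.81% of all genes, nor at the unadjusted p, against 3.20%, and the median over the members was -1.14. CXCL1 was at least 28.8 times lower than the mean of all 3 blank libraries, a difference fixed by the filter, and blank replicate 1 had no read either. NLRP2 was called in 11 of 16 settings and CCL2 in 9. With no filter, the adjusted p of CCL2 by limma was 0.086. Without OE-LINC01134 replicate 2, 4 members were called lower (CCL2, NLRP2, C3AR1 and CSF2), and without either of the other OE-LINC01134 libraries 0 were. Shares of all genes were not counted for these omissions.

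**Figure D3:**
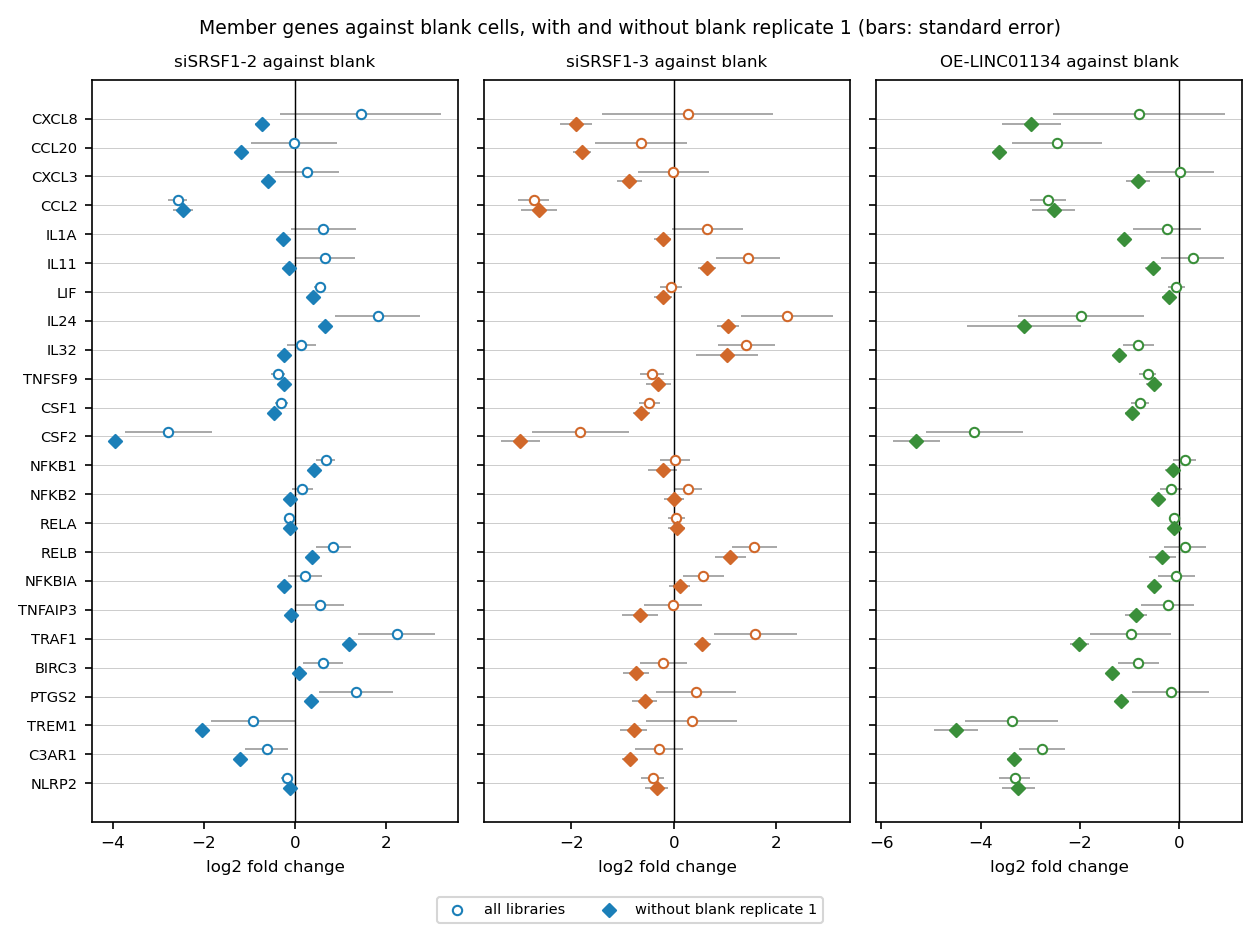
Log2 fold change against blank cells with its standard error for the tested members other than CXCL1, over all libraries (open circles) and without blank replicate 1 (filled diamonds), one panel per group. CCL2 lay near -2.6 in all panels with either set, NLRP2 was shifted in OE-LINC01134, and CXCL8 moved from 1.45 to -0.73 with siSRSF1-2 when blank replicate 1 was left out.

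The siRNAs were also compared with each other, a contrast that does not use the blank libraries. No member was called higher with siSRSF1-3 than with siSRSF1-2, against 0.0342% of all genes, or lower, against 0.0513%, and voom also called none. At the unadjusted p with the same fold, TREM1 (1.27 ± 0.22, adjusted p = 0.072) and IL32 (1.28 ± 0.50, adjusted p = 0.109) were higher, against 9.01% of all genes. CXCL8 was lower at that p (-1.18 ± 0.27, adjusted p = 0.0764), against 7.42%. The libraries of the siRNAs did not overlap for these 3 genes, but they also did not for 7 members higher and 8 lower of 24, near the 27.0% and 27.6% of all genes that did not. CCL2 differed by -0.16 ± 0.36. The replicates of siSRSF1-3 differed more than those of siSRSF1-2, with 13.7% to 33.6% of all genes over 2-fold apart between pairs, against 3.63% to 3.87%.

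Because the calls against blank cells changed with blank replicate 1, the siRNA groups were also set against OE-LINC01134, a contrast chosen after the data were seen. Against OE-LINC01134, 9 of the 24 members were higher with siSRSF1-2, against 4.33% of all genes, and 0 were lower, against 2.35%. They were IL24 (3.79 ± 0.93), TRAF1 (3.20 ± 0.15), NLRP2 (3.13 ± 0.25), TREM1 (2.45 ± 0.38), CCL20 (2.43 ± 0.12), CXCL8 (2.25 ± 0.50), C3AR1 (2.13 ± 0.13), PTGS2 (1.51 ± 0.08) and BIRC3 (1.43 ± 0.10). Their adjusted p ranged from 0.00021 for TRAF1 to 0.0293 for IL24, and voom called 10 higher and 0 lower, with shares of all genes not counted. The libraries did not overlap for 20 of the 24 members, all higher with siSRSF1-2, against 22.2% of all genes. None was lower at the unadjusted p, against 2.94%. CCL2 differed by 0.06 ± 0.40 and RELA by -0.02 on the log2 scale.

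With siSRSF1-3, 6 members were higher than in OE-LINC01134, against 2.10% of all genes, and 0 were lower, against 1.34%. They were TREM1 (3.72 ± 0.43), NLRP2 (2.90 ± 0.38), TRAF1 (2.56 ± 0.21), C3AR1 (2.47 ± 0.19), CCL20 (1.82 ± 0.18) and IL11 (1.17 ± 0.19), with adjusted p from 0.00669 for C3AR1 to 0.0322 for IL11. Of 16 settings, C3AR1 was called in 14, TRAF1 in 13, TREM1 in 12, CCL20 in 11, NLRP2 in 10 and IL11 in 6, and no member was called without siSRSF1-3 replicate 2. Just outside lay IL32 (2.23, adjusted p = 0.0549), IL24 (4.19, adjusted p = 0.0552), CSF2 (2.30, adjusted p = 0.0557) and RELB (1.44, adjusted p = 0.0582). The libraries did not overlap for 17 of the 24 members, all higher with siSRSF1-3, against 19.1% of all genes. Voom called 9 higher and 0 lower, with shares of all genes not counted, and at the unadjusted p 0 members were lower, against 8.22%. The medians were 0.82 with siSRSF1-2 and 0.76 with siSRSF1-3 over the 24 members other than CXCL1, against -0.03 and -0.02 over all genes. These contrasts share the OE-LINC01134 libraries, and whether the members changed in the siRNA cells or in OE-LINC01134 cannot be told apart within them.

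**Figure D4:**
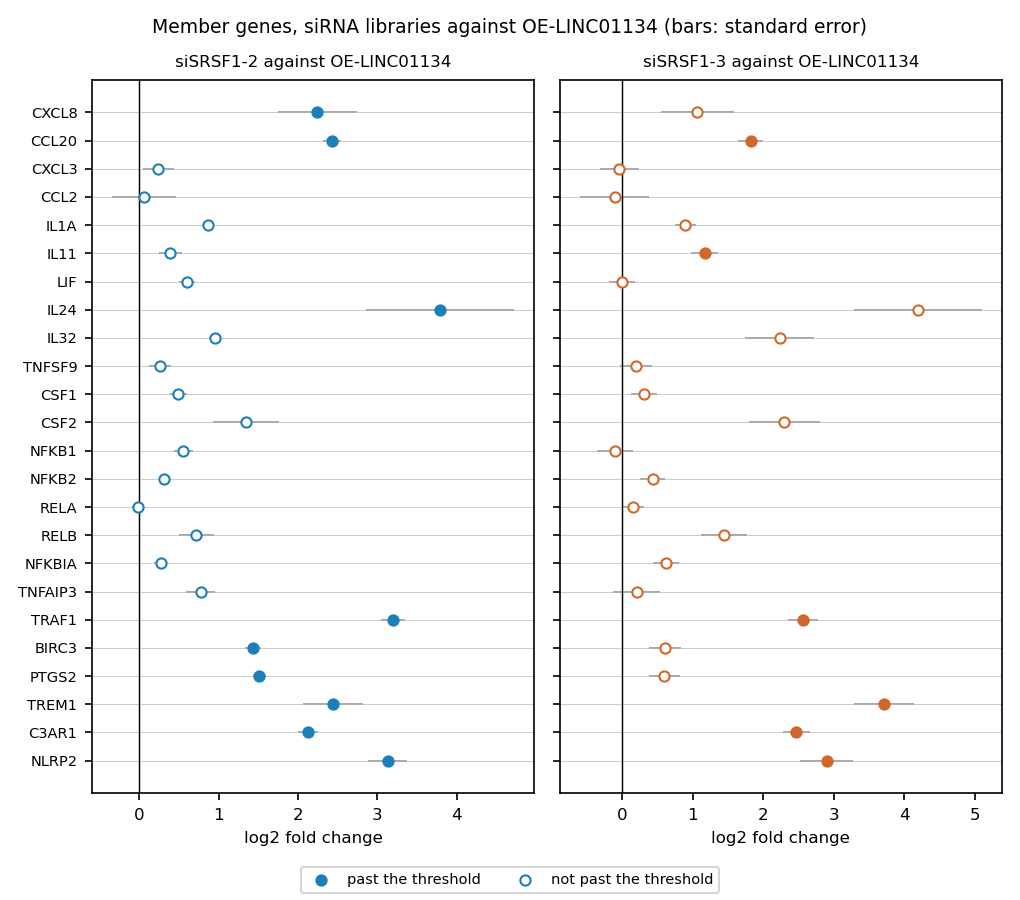
Log2 fold change of the tested members other than CXCL1 in siSRSF1-2 (left) and siSRSF1-3 (right) against OE-LINC01134, with standard errors, filled where past the threshold. Most members lay to the right of 0, with 9 filled on the left panel and 6 on the right, and CCL2 and RELA lay near 0 in both.

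The other genes of the pathway were counted from lists, beside the shares of all genes called given above for each comparison. Of 15 tested receptors (interleukin-1, interleukin-6 family, tumor necrosis factor and Toll-like receptors) and 14 adaptors and kinases from MYD88 to the IkB kinases, 0 were called in either direction against blank cells in any group over all libraries, and at the unadjusted p 2 receptors were higher and 1 lower with siSRSF1-3 and 1 was lower in OE-LINC01134. Voom was not counted for these lists. Without blank replicate 1, IRAK2, an interleukin-1 receptor kinase, was lower with siSRSF1-2 (-1.56) and in OE-LINC01134 (-1.63), IL1R1, the receptor of interleukin-1, was lower in OE-LINC01134 (-1.76), and no other receptor or adaptor was called. Of 13 other subunits and inhibitors, NKILA, a long non-coding RNA that blocks phosphorylation of the inhibitor, was the 1 called over all libraries. It was at 8.77, 10.7 and 11.3 FPKM in blank cells, at 2.77, 2.44 and 3.10 FPKM with siSRSF1-2, at 2.02, 2.14 and 1.84 FPKM with siSRSF1-3 and at 4.54, 7.30 and 5.25 FPKM in OE-LINC01134. NKILA fell with siSRSF1-2 (-1.85 ± 0.13, adjusted p = 0.00121) and with siSRSF1-3 (-2.30 ± 0.18, adjusted p = 0.0184), and all 3 blank libraries lay above all 9 others. NKILA kept both calls without blank replicate 1 (-1.96 and -2.41), and BCL3, an atypical inhibitor, was then also lower with siSRSF1-2 (-1.16). IRAK2, IL1R1 and BCL3 were named after their values were seen. NKILA is in the same list of lower genes that the study drew from these libraries.

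Of 19 other target and inflammasome genes tested, 1 was called lower in each group and 0 higher. SAA1, an acute-phase protein, fell with siSRSF1-2 (-2.83 ± 0.41, adjusted p = 0.00629), from 92.1, 34.2 and 31.7 FPKM in blank cells to 5.73, 6.55 and 7.16 FPKM (siSRSF1-2 replicates 1 to 3). Blank replicate 1 was the highest library for SAA1, opposite to most members. C3, the central complement protein, fell with siSRSF1-3 (-1.91 ± 0.32, adjusted p = 0.0483), from 1.31, 2.21 and 2.31 FPKM to 0.478, 0.364 and 0.454 FPKM. NLRP3, the inflammasome sensor, fell in OE-LINC01134 (-2.58 ± 0.25, adjusted p = 0.0199), from 2.63, 4.56 and 4.02 FPKM to 0.472, 0.600 and 0.515 FPKM. In each of these 3 comparisons the libraries did not overlap. The same held, in the lower direction, for 13.8% (OE-LINC01134) to 24.2% (siSRSF1-2) of all genes, with siSRSF1-3 between them. By the unadjusted p with the same fold, 0, 2 and 0 of the 19 genes were higher with siSRSF1-2, siSRSF1-3 and OE-LINC01134, against 3.06%, 7.57% and 2.45% of all genes, and 2, 5 and 5 were lower, against 3.43%, 7.24% and 5.0%. Without blank replicate 1, 7 of the 19 were lower with siSRSF1-2, 0 with siSRSF1-3 and 4 in OE-LINC01134, against 3.74%, 0.160% and 3.68% of all genes.

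Interferon-stimulated genes, which introduced RNA can raise, had 7, 9 and 8 of 10 log2 fold changes below 0 with siSRSF1-2, siSRSF1-3 and OE-LINC01134. The share of all genes below 0 was not counted. The medians were -0.59, -0.50 and -1.03, against 0.02, -0.01 and 0.05 over all genes. Of the 10 tested, 1 was higher and 2 lower with siSRSF1-2, against 2.22% and 2.73% of all genes. With siSRSF1-3, 0 were higher and 1 lower, against 0.331% and 0.929%, and 0 were called in OE-LINC01134, against 0.257% higher and 0.593% lower. At the unadjusted p with the same fold, 1 was higher and 2 lower with siSRSF1-2, against 3.06% and 3.43%. By that p, 0 were higher and 2 lower with siSRSF1-3, against 7.57% and 7.24%, and 0 higher and 5 lower in OE-LINC01134, against 2.45% and 5.0%. IRF7, a transcription factor of the interferon response, rose with siSRSF1-2 (1.07 ± 0.21, adjusted p = 0.0155), from 0.302 to 0.384 FPKM in blank cells to 0.782 to 0.837 FPKM. IRF7 passed the minimum mean of 0.5 FPKM only with the siSRSF1-2 libraries, where it was high, so the filter favoured this call. In OE-LINC01134 it was at 0.893, 0.293 and 0.666 FPKM, so the rise was not particular to siSRSF1-2. ISG15, a ubiquitin-like modifier, was at 20.3, 22.2 and 19.5 FPKM in blank cells and at 9.73, 10.8 and 9.80 FPKM with siSRSF1-2, where it fell (-1.02 ± 0.08, adjusted p = 0.00133), while its siSRSF1-3 libraries, at 56.3, 31.3 and 10.2 FPKM, lay on both sides of the blank cells. The other lower gene with siSRSF1-2 was OAS1 (-1.17, adjusted p = 0.0159), named after its values were seen. OAS1 passed the minimum only with the blank libraries, where it was high (1.42, 0.882 and 0.983 FPKM), so the filter favoured its lower call. IFIT3, an antiviral protein, fell with siSRSF1-3 (-1.65 ± 0.22, adjusted p = 0.043), from 2.29 to 2.33 FPKM in blank cells to 0.618 to 0.765 FPKM. With blank replicate 1 left out, IRF7 stayed higher and ISG15 lower with siSRSF1-2, 0 were called with siSRSF1-3, and ISG15 (-1.30) and DDX58 (-1.35, a sensor of foreign RNA, named after its values were seen) were lower in OE-LINC01134.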

How the data were processed

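Poly-T selected mRNA was sequenced as paired-end reads according to the supplementary methods, while the sample labels name a SMARTer kit. The labels name mouse as the organism, but the gene identifiers are human, so the samples were treated as human. The aligner, the counting program and the human build are not given in the sources used here. The authors deposited FPKM for each gene, with gene length and coordinates. FPKM times length gave whole reads (largest deviation 0.000153 of a read). The implied library size fell to 0.712 times the read total (siSRSF1-3 replicate 1), so the deposited values carry other size factors than read totals.

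Genes were matched by full name (148 of 148 lookups, SOD2 by the one of its rows with more reads). The members and lists were chosen with earlier results of these data known. Values of log2(FPKM + 0.1), which understate changes of low genes, were fitted over all 17538 genes with a mean of at least 0.5 FPKM with limma 3.58.1 in R 4.3.3 (lmFit and eBayes with a trend), which was tested on simulated data. All members are named, with the 4 called genes of smallest adjusted p per comparison from the pathway lists. Near-identical replicates differed by more than counting noise (chi-square per degree of freedom 2.14 or more) and were counted separately. This does not show that they came from separate cultures. The value was 2.75 between blank replicates 2 and 3 and 2.60 to 3.20 between siSRSF1-2 replicates. It was 63.2 and 66.4 between blank replicate 1 and the other blank libraries. P-values that rest on close libraries measure only the small spread between those. Alternatives were other pseudocounts, filters and scalings, one fit over 4 groups, a replicate block, voom on the recovered reads, no trend and the omission of each library.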

Additional observations from a re-analysis of the deposited data

How the results depend on the processing

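Which members were called depended most on single libraries. The counts here are over the 25 tested members, CXCL1 included. Shares of all genes were counted only for the main fit, the unadjusted p and the omission of blank replicate 1. With each library left out in turn, the number of members called ranged from 0 to 1 higher and 1 to 6 lower with siSRSF1-2 against blank, from 0 to 2 higher and 0 to 1 lower with siSRSF1-3 against blank, from 0 to 13 lower in OE-LINC01134 against blank, and from 0 to 3 in either direction between the siRNAs (3 higher without siSRSF1-3 replicate 3). Against OE-LINC01134 it ranged from 7 to 10 higher with siSRSF1-2 and from 0 to 10 higher with siSRSF1-3, where it was 0 without siSRSF1-3 replicate 2, 10 without siSRSF1-3 replicate 3, 1 without OE-LINC01134 replicate 1 and 2 without OE-LINC01134 replicate 3. At the unadjusted p, 1 member was higher and 2 lower with siSRSF1-2, 3 higher and 2 lower with siSRSF1-3, 7 lower in OE-LINC01134, 2 higher and 1 lower between the siRNAs and 10 higher with siSRSF1-3 against OE-LINC01134. With one fit over 4 groups, the counts were 2 higher with siSRSF1-3 and 5 lower in OE-LINC01134 against blank, 1 higher between the siRNAs and 5 higher with siSRSF1-2 against OE-LINC01134. With no filter, 0 members were lower with siSRSF1-3 and 1 in OE-LINC01134, and with no trend 1 in OE-LINC01134. With FPKM rescaled to the same sum, 0 were lower with siSRSF1-3 and 1 was higher with siSRSF1-3 against OE-LINC01134. That scaling moved the median of all genes from -0.01 to -0.43 with siSRSF1-3 against blank, and each library's own read total moved it to -0.26, so values of siSRSF1-3 are relative to that shift. Replicate numbers did not pair the libraries (correlations of deviations from -0.08 to 0.04), and with a replicate block 0 members were lower with siSRSF1-3 and 0 in OE-LINC01134 against blank.

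The direction turned for CCL20 with siSRSF1-2 against blank (0.10 at the same sum, 0.02 at own read totals, and from -1.19 to 0.56 with a library left out), and, with a library left out, for CXCL8 (-2.98 to 0.30), IL1A (-1.12 to 0.22) and PTGS2 (-1.17 to 0.33) in OE-LINC01134 against blank. The cause was not tested. Of the other values of single members under the alternatives, 451 kept their direction and call, 61 lost the call and 21 gained it. IL6, IL7, IL15, IL1B, IL1RN, TNF, ICAM1, CXCL2 and CXCL10 were too low to test.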
